A study of Mus musculus with 75 samples.

Results

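The samples described here are the 17 of 75 libraries that hold enteric glial cells from the myenteric plexus of wild-type mice given lipopolysaccharide (LPS). They were chosen by their labels for genotype, layer, treatment and time. The myenteric plexus is the nerve layer between the muscle coats of the gut wall. Enteric glia surround its neurons and are the gut's counterpart of astrocytes and Schwann cells. LPS, a cell wall component of Gram-negative bacteria, is sensed through Tlr4 and is used to start systemic inflammation. The comparison asks how colon and small intestine differ once both have met LPS. All positive log2 fold changes below mean higher in the colon.

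At 2 h the mice were wild type apart from a green fluorescent reporter of glia, and the groups held 4 colon and 4 small intestine libraries. At 24 h the mice were labelled Gpr37WT and carried the same reporter, and the groups held 5 colon libraries (mice 3, 5, 8, 13 and 16) and 4 small intestine libraries (mice 3, 8, 13 and 16). Every treated mouse received a single intraperitoneal dose of 2 mg/kg LPS from E. coli O111:B4, and the controls received phosphate-buffered saline (PBS). The PBS groups were 4 colon and 4 small intestine libraries at 2 h, and 4 and 6 at 24 h. Gpr37-/- reporter mice, which lack an orphan receptor of myelinating and enteric glia, gave 4 colon and 5 small intestine libraries 24 h after LPS. All mice of both experiments carry the reporter, so no group is free of it. Gpr37 was at 0 in 3 of 4 and 3 of 5 knockout libraries and reached 0.268 and 0.321 CPM (counts scaled to a common library size) in the rest. It ran from 0 to 8.37 CPM in the 5 wild-type LPS colon libraries and from 0 to 13.1 CPM in the 4 from the small intestine.

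The glial label was checked against Sox10 and S100b, which were above 0 in all 17 libraries. Sox10 ran from 46.7 to 158 CPM in the 2 h colon, from 69.8 to 175 in the 2 h small intestine, from 14.4 to 633 in the 24 h colon and from 62.3 to 109 in the 24 h small intestine. Markers of other cells were present beside them. The neuronal markers Elavl4 and Snap25 were above 0 in all 17 libraries, as were the smooth muscle markers Myh11, Actg2 and Des. In bulk libraries of this kind, fewer cells of a type and less RNA per cell cannot be told apart. The colon libraries of mice 3 and 8 stood apart: summed CPM of 18 epithelial markers was 13850 and 26420 there, against 46.2, 29.1 and 23.3 in mice 5, 13 and 16. Their Sox10 level was also the lowest of the 24 h colon, at 57.8 and 14.4 CPM against 173 to 633. Results at 24 h are therefore given with these libraries and, where it matters, without them. Sequencing depth was 2368306 to 5724367 counts per library in the 2 h colon and 5343711 to 7878037 in the 2 h small intestine (exact two-sided permutation test, p = 0.0571). At 24 h it was 2882539 to 9162042 and 4266678 to 12629385 (exact permutation p = 0.27). Genes detected at 24 h were fewer in the colon, 12592 to 13877 per library against 13636 to 14364 in the small intestine (exact permutation p = 0.0317), and the part of this in the calls lower in the colon was not tested.

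Hox genes are transcription factor genes arranged in clusters whose order follows the body axis. Genes at the 3′ end of a cluster, with low numbers, act in anterior segments and genes at the 5′ end, with high numbers, in posterior ones. Gut cells keep this positional pattern in adult life, so the hindgut, which gives rise to the distal colon, carries posterior Hox genes that the midgut lacks. Several of the regional differences after LPS lay in this family, and the upstream sequences of 3 of its members on chromosome 6 are shown as the DNA they start from. They are the 250 bases before the start site in RefSeq (GRCm38.p6), 5′ to 3′ on the gene's strand. Capitals mark TTTAT, the core of the motif bound by caudal-type and posterior Hox proteins, searched on both strands. The first, before Hoxa10, is chr6:52240855-52241104 on the minus strand. The second, before the RefSeq start of Hoxa11os, is chr6:52244993-52245242 on the plus strand. GENCODE vM21 starts that gene further upstream, so the window lies within the gene by that annotation. It overlaps an exon of Hoxa11, which is read from the other strand. The third, before the more anterior gene Hoxa5, is chr6:52204588-52204837 on the minus strand.

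Hoxa10: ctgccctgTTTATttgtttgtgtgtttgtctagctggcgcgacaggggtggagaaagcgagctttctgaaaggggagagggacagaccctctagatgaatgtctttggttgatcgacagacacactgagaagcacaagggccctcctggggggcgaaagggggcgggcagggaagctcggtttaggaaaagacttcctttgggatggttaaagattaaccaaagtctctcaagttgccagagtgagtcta
Hoxa11os: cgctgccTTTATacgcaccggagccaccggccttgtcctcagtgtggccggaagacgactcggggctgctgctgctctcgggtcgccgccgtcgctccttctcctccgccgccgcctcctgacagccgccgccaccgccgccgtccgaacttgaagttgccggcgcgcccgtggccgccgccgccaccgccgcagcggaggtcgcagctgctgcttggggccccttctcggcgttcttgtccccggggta
Hoxa5: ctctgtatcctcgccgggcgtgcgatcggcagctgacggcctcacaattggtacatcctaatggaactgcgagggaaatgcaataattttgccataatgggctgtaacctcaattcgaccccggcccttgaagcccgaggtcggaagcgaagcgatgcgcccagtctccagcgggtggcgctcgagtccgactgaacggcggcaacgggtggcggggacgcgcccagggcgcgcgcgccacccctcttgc

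The Hoxa10 and Hoxa11os windows shown each hold 1 match and the Hoxa5 window 0. Another RefSeq window of Hoxa10, not shown, also holds 1, and the window of the posterior gene Hoxa11 holds 0. Over all 32851 RefSeq windows of this length, 37.3% hold the letters. Among the windows of posterior Hox genes, 4 of 11 do (36.4%, 9 of 16 genes matched), and among anterior ones 5 of 13 (38.5%, 13 of 23 genes matched). The motif was thus about as frequent upstream of either set as upstream of genes in general.

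Of 13107 genes tested 2 h after LPS, 8 passed an adjusted p of 0.05 in edgeR's quasi-likelihood test (0.061% of genes), 4 higher in the colon (0.0305%) and 4 lower (0.0305%). At an unadjusted p under 0.05, 1376 genes differed. The 4 that were higher were Hoxa10, the antisense transcript Hoxa11os, the matrix gene Tnc and the caveolar gene Cavin3. The 4 that were lower were Trpc6, Dgkb, Slc9a3r1 and Alcam. Colon and small intestine did not overlap in any of these 8.

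Hoxa10 specifies posterior identity and lies on chromosome 6, from 52231197 to 52240854 on the minus strand (GENCODE vM21, GRCm38). It was at 56.9, 1.8, 42.7 and 23.6 CPM in colon replicates 1 to 4 and at 0, 0.201, 0 and 0 CPM in the small intestine. A single count, in small intestine replicate 2, was all that region held. The ratio of CPM was 804 (95% exact counting interval 144 to 31800), and the fitted log2 fold change was 8.91 ± 1.27 (SE, adjusted p = 0.0152).

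Hoxa11os is a long noncoding RNA transcribed across Hoxa11 from the other strand, on chromosome 6 from 52244393 to 52249799. It was at 29, 38.1, 10.7 and 14.4 CPM in the colon and at 0, 0.201, 0 and 0.132 CPM in the small intestine. The ratio was 353 (97.2 to 2930), from 398 counts against 2, and the adjusted p was 0.0337. Hoxa11 itself was at 5.8, 1.2, 6.57 and 3.88 CPM in the colon and had 1 count in the small intestine (adjusted p = 0.13). Whether the counting used strand is not given in the sources used here, so reads from Hoxa11 and Hoxa11os cannot be told apart. The intervals on counts cover counting error only, since the libraries carry no molecular identifiers.

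Tnc encodes tenascin-C, a matrix glycoprotein of developing and injured tissue, and lies on chromosome 4 from 63959785 to 64047015. It was at 267, 423, 375 and 466 CPM in the colon and at 46.9, 64.7, 103 and 98.5 CPM in the small intestine. Its means were 383 ± 85.5 and 78.3 ± 27 CPM (SD, n = 4 each), a log2 fold change of 2.29 ± 0.33 (SE, adjusted p = 0.0152). Cavin3, a coat protein of caveolae, was at 401, 430, 221 and 251 CPM in the colon and at 109, 114, 106 and 100 CPM in the small intestine. The colon values fell into a higher and a lower pair, both above every small intestine library. The log2 fold change was 1.61 ± 0.27 (adjusted p = 0.0457).

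Trpc6, a cation channel opened by diacylglycerol, was the reverse of Hoxa10: 1 count in colon replicate 1 and 0 in the other 3, against 10.6, 58.5, 25.4 and 57.9 CPM in the small intestine. The ratio was 564 in favour of the small intestine (101 to 22300), and the adjusted p was 0.0152. Dgkb, a kinase that removes diacylglycerol, was at 1.11, 1.6, 2.05 and 3.05 CPM in the colon and at 58.3, 144, 10.8 and 67.1 CPM in the small intestine. The log2 fold change was -5.16 ± 0.90 (adjusted p = 0.0457). Alcam, an adhesion molecule of the immunoglobulin family, was at 81.2, 87.8, 112 and 85.7 CPM against 227, 277, 302 and 238 CPM. It had the most even replicates of the 4, with a log2 fold change of -1.51 ± 0.26 (adjusted p = 0.0457). Slc9a3r1, a scaffold that ties membrane transporters to ezrin, was at 22.3, 25.5, 44.8 and 32.2 CPM against 83.1, 247, 166 and 99.7 CPM, with a log2 fold change of -2.26 ± 0.39 (adjusted p = 0.0457).

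**Figure D1:**
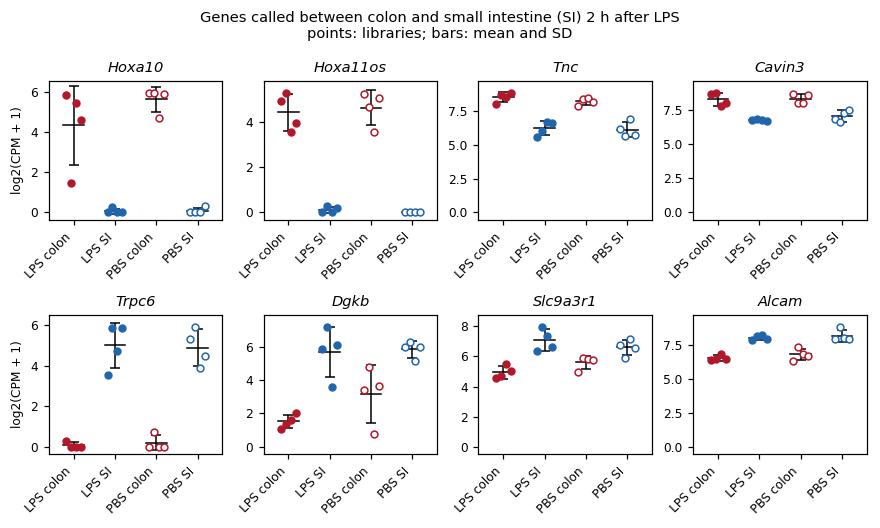
Expression of the 8 genes called 2 h after LPS, as log2(CPM + 1) per library, in colon and small intestine after LPS (filled points) and PBS (open points), with the mean and SD of each group. The LPS colon points lie above all LPS small intestine points for Hoxa10, Hoxa11os, Tnc and Cavin3 and below them for Trpc6, Dgkb, Slc9a3r1 and Alcam.

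Of these 8 genes, 5 were also called in the PBS mice. The libraries compared are others, but both comparisons come from 1 fit of all 16 libraries with a shared spread. The 2 sets of calls are therefore not independent. The PBS comparison called 29 genes (0.221%). The PBS log2 fold changes were 8.85 for Hoxa10, 9.99 for Hoxa11os, 2.03 for Tnc, -7.59 for Trpc6 and -1.38 for Alcam. Cavin3 (1.25, adjusted p = 0.0673), Dgkb (-2.27, adjusted p = 0.229) and Slc9a3r1 (-1.03, adjusted p = 0.27) had the same sign after PBS without passing. The test of region by treatment, which asks whether LPS altered the regional difference, called 0 of 13107 genes (0%) in edgeR, with 452 at an unadjusted p under 0.05 and 57 called by DESeq2. In untreated mice of a separate experiment, scaled on its own, Tnc was at 361 ± 296 CPM in the colon (SD, n = 5) and 87.8 ± 54 in the small intestine (n = 6). Alcam was there at 98.3 ± 33.8 and 331 ± 108 CPM, and Slc9a3r1 at 69.4 ± 35.1 and 72.2 ± 17.8 CPM.

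The 2 h calls were close to the threshold. Leaving out a single library left Tnc called in 6 of 8 fits, Hoxa10 in 5, Trpc6 in 4, Hoxa11os and Slc9a3r1 in 2 each and the other 3 in 1 each, and no sign changed. No gene was called without colon replicate 4 or without small intestine replicate 4, and 19 were without colon replicate 3.

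After 24 h, 39 of 14903 genes were called (0.262%), 5 higher in the colon (0.0336%) and 34 lower (0.228%), with 2168 at an unadjusted p under 0.05. The 4 mice with both regions showed the called direction in all 4 animals for 38 genes, and Eml6 did so in 3. These same libraries gave the calls, so this count describes them and is no separate support. The higher group held Hoxa11os, Cdc42ep5, Galnt7, Lrrc45 and the histone gene Hist1h4i. The lower group was mixed. It held Hoxc8, the Wnt agonist Rspo1 and the desmosomal gene Dsc3, genes best known from neurons such as Lrrtm1, Kif5a and Nmnat2, and genes of general cell metabolism and upkeep such as Got2, Gaa and Diablo. No member of the fixed neuronal list was among them. With the mouse as a block, 19 genes were called, 3 higher and 16 lower. They shared 8 with the 39: Rgmb, Tubb4a, Bin1, Dsc3, Gaa, Nsg2, Lrrtm1 and Hoxa11os. All 39 kept their sign under the block.

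Hoxa11os was at 35.6, 0.91, 17.7, 12.4 and 21.9 CPM in the colon of mice 3, 5, 8, 13 and 16 and at 0 in all 4 small intestine libraries. Taking 3 counts per small intestine library as the floor, the colon level was at least 37-fold higher (log2 fold change 10.36 ± 1.70, adjusted p = 0.00729, and 0.0445 with the block). Of the 8 genes called at 2 h, it was the 1 that was also called at 24 h without the block. With the mouse as a block Alcam was called at 24 h as well (-1.51 ± 0.26, adjusted p = 0.0418, against 0.1 without it). Of the 7 other than Hoxa11os, Hoxa10 (8.45), Trpc6 (-2.27), Dgkb (-2.37) and Alcam (-1.61) kept log2 fold changes above 1 in size at 24 h. Tnc (0.75), Slc9a3r1 (-0.35) and Cavin3 (0.02) did not, and Cavin3 was at 97.5 ± 32.8 CPM in the colon (n = 5) and 96.3 ± 33.6 in the small intestine (n = 4).

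The other 4 genes that were higher in the colon each had their highest value in mouse 3 or mouse 8. Cdc42ep5, which binds the small GTPase Cdc42, was at 160, 103, 191, 48.4 and 53.7 CPM against 15.9, 6.84, 19.4 and 23.7 CPM (log2 fold change 2.76 ± 0.53, adjusted p = 0.0135, block 0.0929). Without the colon libraries of mice 3 and 8 it was 2.05 (adjusted p = 0.0593). Galnt7, an enzyme of mucin-type O-glycosylation, was at 43.9 and 37.2 CPM in mice 3 and 8 and at 4.32 to 6.71 CPM in the other 3, against 0.513 to 2.83 CPM. Its log2 fold change was 3.46 ± 0.78 (adjusted p = 0.0438, block 0.13), and without the colon libraries of mice 3 and 8 it was 1.58 (adjusted p = 0.269). These are the libraries with the high epithelial marker sum, and the part of epithelial RNA in the Galnt7 result was not tested beyond this. Lrrc45, a centrosome linker protein, was at 19.1, 3.41, 3.38, 0.364 and 1.8 CPM against 0, 0, 0.185 and 0.106 CPM, a ratio of 77.7 (21.1 to 649). Its fitted log2 fold change was 6.07 (adjusted p = 0.0135, block 0.141), and 4.54 without the colon of mice 3 and 8 (adjusted p = 0.0468). Hist1h4i was at 13.4, 4.32, 15.4, 1.09 and 0.719 CPM against 0 throughout, at least 14.6-fold higher, but histone H4 genes are near-identical copies that can share reads. Its fitted log2 fold change was 9.02 (adjusted p = 0.0177, block 0.147), and 7.30 without those libraries (adjusted p = 0.0456). The PBS log2 fold changes were 0.17 for Lrrc45 and -0.26 for Hist1h4i. In PBS mice Lrrc45 was at 12.6 ± 5.39 CPM in the colon (SD, n = 4) and 11.2 ± 5.24 in the small intestine (n = 6), so its 4 LPS small intestine libraries, and 4 of the 5 LPS colon libraries (all but mouse 3), lay below every PBS library of either region.

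Hoxc8, Dsc3 and Rspo1 were at 0 in every colon library and were also called after PBS. Hoxc8, which lies anterior to Hoxa10 in the Hox order, on chromosome 15 from 102990607 to 102994111, was at 16.2, 0.182, 8.14 and 3.39 CPM in the small intestine. It was at least 10-fold lower in the colon (adjusted p = 0.00796, block 0.0899), with log2 fold changes of -7.73 after PBS and -8.83 in the knockouts, both called. Dsc3, a desmosomal cadherin, was at 5.13, 22.8, 19.4 and 28.7 CPM in the small intestine. It was at least 27.4-fold lower in the colon (adjusted p = 0.00243, block 0.0398) and was called in the PBS (-7.46) and knockout (-8.70) mice. Rspo1, a secreted amplifier of Wnt signalling that mesothelial cells also make, was at 11.3, 4.65, 16.3 and 12.4 CPM. It was at least 16-fold lower in the colon (adjusted p = 0.00157, block 0.0928), called after PBS (-4.10, adjusted p = 0.0221) and not called in the knockouts (-2.48, adjusted p = 0.275). In PBS mice Rspo1 was at 7.49 ± 4.59 CPM in the colon (n = 4) and 129 ± 79.5 in the small intestine (n = 6), above the LPS libraries of the same region.

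Lrrtm1, a postsynaptic adhesion protein, had the smallest p of the 39. It was at 0, 0, 0, 1.09 and 0.12 CPM in the colon and at 11, 34.2, 4.07 and 13.9 CPM in the small intestine (log2 fold change -6.39 ± 0.93, adjusted p = 0.00118, block 0.043). It was not called after PBS (-1.24, adjusted p = 0.795) or in the knockouts (-0.60, adjusted p = 0.836), and the region-by-treatment test did not pass (adjusted p = 0.287). After PBS it was at 24.1 ± 8.67 CPM in the colon (n = 4) and 57 ± 21.2 in the small intestine (n = 6). In untreated mice it was at 9.69 ± 9.1 CPM in the colon (n = 5) and 80.2 ± 33.9 in the small intestine (n = 6). Cacng4, an auxiliary subunit of AMPA receptors, was at 0 in the colon and at 11.8, 5.56, 2.4 and 6.45 CPM in the small intestine, at least 9.43-fold lower (adjusted p = 0.00796, block 0.0856).

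Other called genes of the lower group are ordered here by their known roles, an order made after their values were seen. Kif5a, a neuronal kinesin motor, was at 3.77, 3.18, 6.33, 3.64 and 24.7 CPM against 64.6, 130, 25.5 and 66.4 CPM (log2 fold change -3.07 ± 0.60, adjusted p = 0.0153, block 0.103). Klc1, the light chain of that motor, was at 64.4, 131, 192, 87 and 186 CPM against 491, 673, 187 and 301 CPM. It overlapped, since mouse 13 small intestine (187) lay below mouse 8 colon (192). Its log2 fold change was -1.64 ± 0.32 (adjusted p = 0.0135, block 0.0625). Dnm3, a synaptic dynamin, was at 1.18, 0.455, 12.2, 3.64 and 9.59 CPM against 52.8, 113, 27.6 and 67.9 CPM (-3.57 ± 0.67, adjusted p = 0.0127, block 0.0556). Nsg2, an endosomal protein of neurons, was at 9.46 to 41.3 CPM against 77.1 to 246 CPM (-2.39 ± 0.51, adjusted p = 0.033, block 0.0398). Tubb4a, a tubulin of neurons and myelinating glia, was at 56.8 to 236 CPM against 213 to 743 CPM (-2.19 ± 0.48, adjusted p = 0.0383, block 0.029).

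Signalling genes of the same group were also lower in the colon. Pak3, a kinase of dendritic spines, was at 0 to 3.12 CPM against 9.95 to 31.6 CPM (-4.19 ± 0.80, adjusted p = 0.0135, block 0.127). Nmnat2, which keeps axons alive by making NAD, was at 0 to 1.32 CPM against 9.25 to 38 CPM (-5.61 ± 1.12, adjusted p = 0.0164, block 0.103). Cacnb1, a calcium channel subunit, was at 0.455 to 4.86 CPM against 5.92 to 38 CPM (-3.30 ± 0.62, adjusted p = 0.0127, block 0.142). Rgmb, a co-receptor for bone morphogenetic proteins, was at 54.2 to 116 CPM against 191 to 311 CPM (-1.49 ± 0.31, adjusted p = 0.0247, block 0.0163). Vegfd, a growth factor for lymphatic vessels, was at 0 to 3.54 CPM against 4.01 to 37.7 CPM (-3.96 ± 0.88, adjusted p = 0.0394, block 0.129), and its 2 highest small intestine values came from mice 13 and 16. Without the colon libraries of mice 3 and 8, Kif5a (-2.71, adjusted p = 0.0693), Nmnat2 (-4.93, adjusted p = 0.0597) and Rgmb (-1.40, adjusted p = 0.0593) were no longer called, while Lrrtm1 (-5.70) and Pak3 (-3.59) were. With wild-type LPS mice 3, 5 and 8 alone the log2 fold changes of Lrrtm1, Pak3 and Kif5a were -10.78, -6.86 and -4.44, and with mice numbered 11 and above alone they were -4.41, -2.19 and -1.64. Lrrtm1 was at 0 in the colon of mice 3, 5 and 8, so its -10.78 is a fitted value whose size is not exact.

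**Figure D2:**
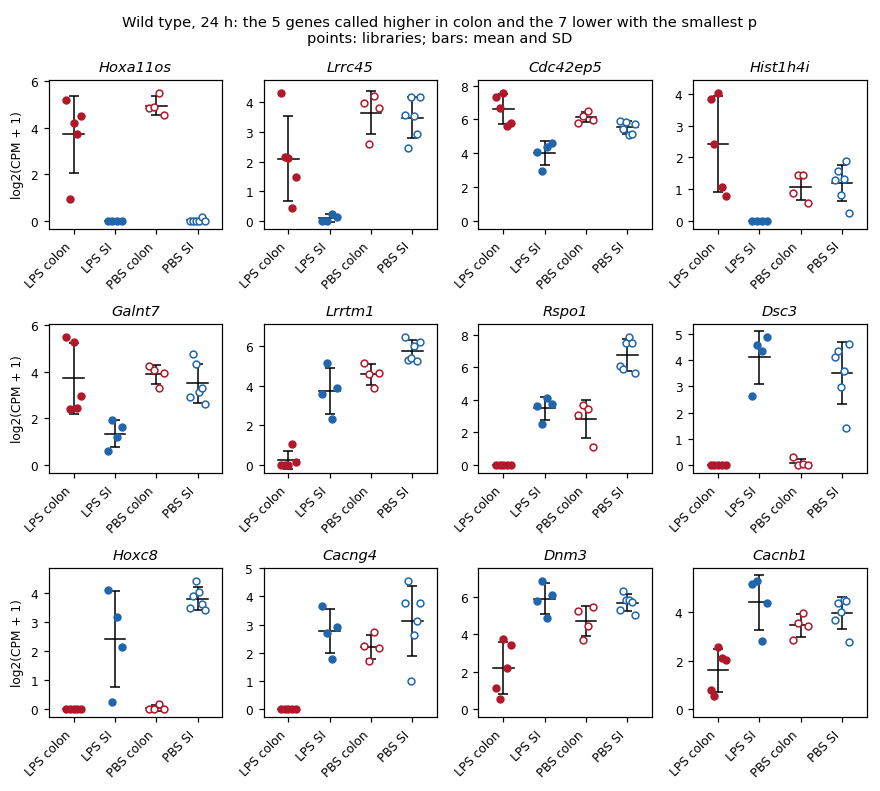
Expression of 12 of the genes called 24 h after LPS (5 higher in the colon and the 7 lower ones with the smallest p) as log2(CPM + 1) per library, in colon and small intestine of wild-type mice after LPS (filled points) and PBS (open points), with the mean and SD of each group. Lrrtm1, Cacng4 and Dnm3 show a gap after LPS that is narrower after PBS, whereas Hoxa11os, Hoxc8 and Dsc3 show it in both.

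Read in other mice, the 34 genes lower in the colon had a negative log2 fold change in all 34 cases after PBS, where 3 were called and the median was -0.80. Of all genes tested, 53.6% were negative after PBS. In the knockouts given LPS, 29 of 34 were negative (49.2% of all genes), 2 were called and the median was -0.77. The PBS and knockout libraries were in the same fit as the wild-type LPS ones, with a shared spread. The PBS comparison called 21 of 14903 genes (0.141%) and the knockout comparison 11 (0.0738%). Of the 5 higher genes, 4 were positive after PBS (46.4% of all genes) and 4 in the knockouts (50.5% of all genes). The test of region by treatment called 0 genes (0%) in edgeR, with 1126 at an unadjusted p under 0.05 and 126 called by DESeq2. The test of region by genotype called 0 genes (0%), with 1107 unadjusted and 87 by DESeq2. No wild-type PBS colon library came from a mouse numbered 10 or below, while 3 of the 5 LPS colon libraries did, so the number range and the treatment are partly confounded in the colon. Among mice numbered 11 and above, with 2 LPS colon libraries (mice 13 and 16), region by treatment called 7 genes, each with a more negative colon-against-small-intestine difference after LPS than after PBS. With the number range as a covariate it called 0, with 1272 unadjusted.

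The count of 24 h calls differed between subsets of the libraries, which also differ in size. Among libraries of mice numbered 11 and above, 2 against 2 after LPS, 23 genes were called (7 higher and 16 lower), 3 of them among the 39. With the wild-type LPS libraries restricted to mice numbered 10 and below, 3 against 2 and including the colon of mice 3 and 8, 352 were called (180 and 172), 33 of them among the 39. Without the colon libraries of mice 3 and 8 there were 106 calls (42 and 64), which held 24 of the 39, and all 39 kept their sign. Leaving out a single library gave 7 to 153 calls. The fewest came without small intestine mouse 8 and the most without colon mouse 16, while leaving out small intestine mouse 13 gave 151 and small intestine mouse 3 gave 12. The genes called in all 9 of these fits were 6: Lrrtm1, Rspo1, Dsc3, Hoxa11os, Hoxc8 and Cacng4.

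Both times were next read together over the 13073 genes tested in both. The times differ in mice, in library set and in normalisation, so the values are set side by side. The Pearson correlation of the log2 fold changes between the times was 0.24. Of 323 genes with an unadjusted p under 0.05 at both times, 31 had opposite signs. Colon and small intestine did not overlap in the same direction at both times for 11 genes above (0.0841%) and 73 below (0.558%), and in opposite directions for 5. By contrast, single times gave 367 above (2.8%) and 474 below (3.62%) at 2 h, and 106 above (0.711%) and 367 below (2.46%) at 24 h. Of the genes apart in the same direction at both times, 62 that are not predicted models also had an unadjusted p under 0.05 at both, 9 above and 53 below. No list was fixed for this set and its genes are named for description.

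The protocadherin alpha genes were the largest family in it. These cadherin-like adhesion proteins give neurons a cell-surface identity, and 12 of them lay below in the colon at both times. Their log2 fold changes ran from -3.61 to -3.03 at 2 h (adjusted p from 0.229 to 0.341) and from -3.38 to -3.05 at 24 h (adjusted p from 0.0503 to 0.0645). The genes share their 3′ exons, so their counts can come from the same reads and the 12 cannot be taken as separate observations. Hox genes gave 5 members: Hoxa11 and Hoxa11os above, and Hoxa5, Hoxc4 and Hoxc8 below. Hoxa5 was at 74.2, 9.62, 54.2 and 29.1 CPM in the 2 h colon and at 166, 113, 143 and 219 CPM in the small intestine (-1.94 ± 0.49, adjusted p = 0.139). Hoxc4 was at 3.54, 2.5, 0.844, 6.55 and 7.79 CPM in the 24 h colon and at 26.2, 13.9, 11.3 and 17.4 CPM in the small intestine (-2.01 ± 0.47, adjusted p = 0.0532). The neuronal gene Elavl4 (-2.26 at 2 h, -2.33 at 24 h) was in the set, as was the mesothelial gene Slpi (-7.63 and -3.79). Ush1c, a scaffold of epithelial microvilli, was above at both times (6.51 and 7.26), without being called (adjusted p = 0.212 and 0.101). Its 24 h colon values were 31.1 and 78.1 CPM in mice 3 and 8 and 0.959 to 1.36 CPM in the other 3, against 0 to 0.513 CPM. It had the opposite sign after PBS (-1.35 at 2 h, -0.78 at 24 h) and in the knockouts (-2.50).

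**Figure D3:**
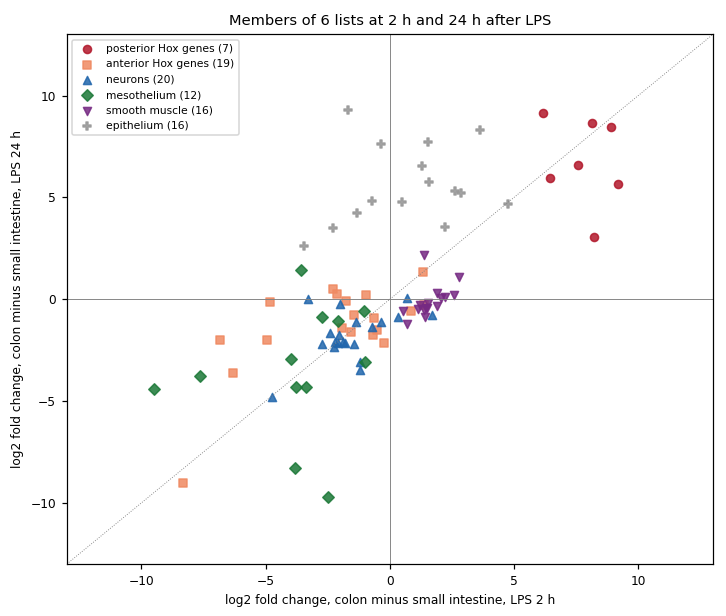
Log2 fold change of colon over small intestine after LPS at 2 h (horizontal axis) and at 24 h (vertical axis), with 1 point per gene and 6 gene lists coloured. Posterior Hox genes lie in the upper right, and the mesothelial and neuronal genes mostly in the lower left. Smooth muscle genes lie mostly to the right on the 2 h axis, with a median near 0 on the 24 h axis (-0.30). Anterior Hox and epithelial genes are plotted as well. No smooth muscle gene was called in the fit without a replicate block, which gave the plotted values.

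Posterior Hox genes, those numbered 9 and above, had a median log2 fold change of 8.15 at 2 h and 6.27 at 24 h, against -0.02 and 0.04 over all genes. Only 7 of 16 at 2 h and 12 of 16 at 24 h passed the low-count filter. A gene at 0 in the small intestine could pass only through the colon, so these medians are a description. With genes at 0 in the small intestine set to their lower bound, the medians were 5.04 and 3.78. Hoxd9 was at 0.892, 2.2, 11.9 and 15.8 CPM in the 2 h colon and 0 in the small intestine, and Hoxa10 at 24 h was at 16.5, 0, 31.2, 25.1 and 15.2 CPM, with 1 count in the small intestine (adjusted p = 0.0532). Hoxa11 at 24 h was at 8.25, 0.91, 9.29, 9.1 and 11.1 CPM against 0 (adjusted p = 0.0532). Anterior Hox genes, by contrast, had medians of -1.56 (16 of 19 tested negative) and -0.94 (16 of 21), with Hoxc8 the 1 call. The PBS medians of the posterior list were 7.72 and 5.28, over the same filtered members and without lower bounds.

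The neuronal list (20 genes) had a median of -1.86 at 2 h (17 negative, 12 with an unadjusted p under 0.05) and -1.93 at 24 h (18 negative, 13 unadjusted), but no member was called without a replicate block. The summed CPM of the list was 3133, 529, 1009 and 712 in the 2 h colon and 4967, 4390, 3205 and 4859 in the small intestine, without overlap. At 24 h it was 2353, 591, 3290, 468 and 1579 against 6013, 8551, 2416 and 4228, where colon mouse 8 lay above small intestine mouse 13. Stmn2, a growth cone protein, was at 216, 73.4, 117 and 68.7 CPM against 458, 382, 355 and 488 CPM (adjusted p = 0.114). The PBS medians were -2.65 and -1.51, and the 24 h median without mice 3 and 8 in the colon was -2.87. Klc1, Kif5a, Dnm3 and Tubb4a, called above, were, like this sum, highest in mouse 8 and lowest in mouse 13 in the 24 h small intestine. In the 24 h colon they followed it in part. Klc1 (192 CPM), Dnm3 (12.2) and Tubb4a (236) were highest in mouse 8, as the sum was, and Tubb4a was lowest in mouse 13 (56.8), as the sum was. Klc1 was lowest in mouse 3, Kif5a was highest in mouse 16, and Dnm3 and Kif5a were lowest in mouse 5. The part of neuronal RNA in those calls was not tested.

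Among genes of enteric neurotransmission the medians were -1.14 at 2 h and -1.36 at 24 h, with no call. Cartpt, a neuropeptide precursor, was at 39.6, 47.1, 73, 19.3 and 10.3 CPM in the 24 h colon against 519, 595, 126 and 525 CPM (adjusted p = 0.0645). Slc5a7, the choline transporter of cholinergic neurons, was at 0.472, 1.36, 9.5, 0 and 6.11 CPM against 34.6, 57.5, 18.3 and 27.9 CPM (adjusted p = 0.107). Npy was at 0 in all 4 colon libraries at 2 h and at 71.5, 0, 74.4 and 82.8 CPM in the small intestine (adjusted p = 0.139). These examples have the smallest p of their list and were picked after their values were seen.

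Mesothelial genes, which mark the serosal lining, had a median of -3.48 at 2 h (12 of 12 negative) and -3.43 at 24 h (11 of 12). Without a replicate block Rspo1 was the 1 call among them, at 24 h, and it was not called with the mouse as a block (adjusted p = 0.0928). Under the block Nkain4, a mesothelial list member, was called instead (-2.95 ± 0.49, adjusted p = 0.0398), against -0.59 without it (adjusted p = 0.762). Nkain4 was at 0.236, 36.8, 1.48, 2.18 and 2.52 CPM in the colon of mice 3, 5, 8, 13 and 16 and at 11.8, 4.19, 19.1 and 17.2 CPM in the small intestine, and mouse 5, with its high colon value, has no small intestine library to pair with. The list's summed CPM was 78.7, 253, 113 and 268 against 296, 6012, 1428 and 1637 at 2 h, with small intestine replicate 2 far above the rest. At 24 h it was 267, 69.6, 259, 255 and 73.9 against 3817, 920, 1374 and 1248. Without small intestine replicate 2 the 2 h median was -2.39. Msln and Upk3b were above 0 in all 8 small intestine libraries and at 0 in 2 of 4 colon libraries at 2 h and 2 of 5 at 24 h. Wt1, the other defining marker of the type, overlapped between the regions at both times. It ran from 0 to 11.9 CPM in the 2 h colon and from 0 to 41 in the small intestine. At 24 h it ran from 0 to 13.7 CPM in the colon and from 1.37 to 23.4 in the small intestine. The PBS medians of the list were -4.32 and -4.94.

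No smooth muscle or fibroblast gene was called at either time in the fit without a replicate block, and the difference between the times was not tested. At 2 h, 16 of 16 smooth muscle genes were positive with a median of 1.48 (10 with an unadjusted p under 0.05), and at 24 h 6 of 16 were positive with a median of -0.30. Fibroblast genes had medians of 1.80 (14 of 14 positive) and 0.02 (7 of 14). Collagens and matrix genes had medians of 0.96 (24 of 25 positive) and 0.34 (18 of 25), with Tnc the only call in that fit. Cnn1, a contractile protein, was at 5650, 7000, 2640 and 2060 CPM in the 2 h colon and at 538, 1200, 96.5 and 655 CPM in the small intestine (adjusted p = 0.153). Fbln1, a matrix protein, was at 1220, 1100, 1710 and 1440 CPM against 88.4, 47.2, 371 and 190 CPM (adjusted p = 0.107). The 2 h smooth muscle sum was 75040, 80090, 28740 and 27000 CPM in the colon and 15720, 28910, 3248 and 16880 CPM in the small intestine, where replicate 2 lay above colon replicates 3 and 4. The Tnc and Cavin3 results lie beside these sums, and the part of muscle and fibroblast RNA in them was not tested. The PBS medians at 2 h were 1.74 for smooth muscle and 1.29 for fibroblasts.

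**Figure D4:**
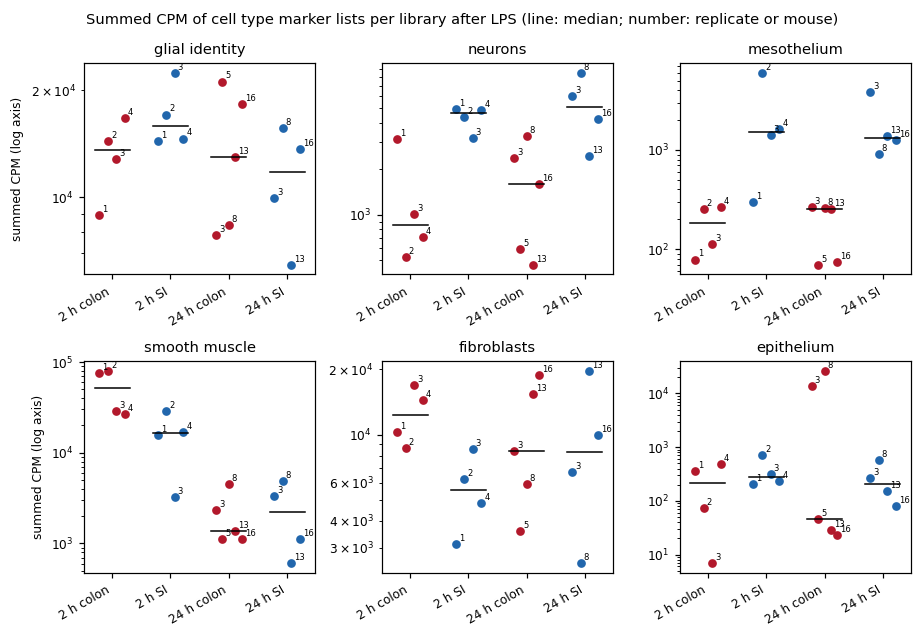
Summed CPM of 6 marker lists per library on a log axis, with each number the replicate (2 h) or mouse (24 h). Mesothelial sums of the colon lie below all small intestine libraries at both times, neuronal sums do so at 2 h and overlap at 24 h, the smooth muscle sums at 2 h overlap, and the 24 h epithelial sum is 13850 and 26420 in colon mice 3 and 8 against 23.3 to 584 elsewhere.

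Epithelial genes gave a 24 h median of 5.01 (18 of 18 positive, 13 with an unadjusted p under 0.05), which rested on mice 3 and 8. Muc2, the mucin of goblet cells, was at 2140 and 4640 CPM in those colon libraries and at 0 to 2.73 CPM in the other 3. Without both libraries the median was -3.32, and after PBS it was -0.83. The lymphocyte sum was likewise 2870 and 1484 CPM in mice 3 and 8 and 9.1 to 28.2 CPM in the other colon libraries.

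A panel of 14 glial and inflammatory genes, among them cytokines and chemokines that LPS is known to raise, was read at both times, and none was called between the regions. Il6, the cytokine of the acute phase response, was at 271, 382, 332 and 397 CPM in the 2 h colon and at 185, 96.7, 198 and 161 CPM in the small intestine. The groups did not overlap, but the log2 fold change of 1.11 did not pass (95% interval -0.04 to 2.26, adjusted p = 0.49). Intervals of the other chemokines at 2 h were wide and held 0, from -1.96 to 1.67 for Ccl2, from -1.74 to 1.66 for Cxcl1 and from -2.15 to 0.57 for Cxcl10. Nfkbia, the inhibitor that ends NF-kB signalling, had a narrower interval, from -0.64 to 0.56. At this spread between libraries these values show neither a difference nor likeness between the regions.

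Lcn2, an iron-scavenging acute phase protein, was the panel gene whose regional difference was called after PBS. At 2 h it was at 191.5, 11.89, 106 and 29.18 CPM in the PBS colon and at 3.755, 0, 0.8029 and 0.2396 CPM in the PBS small intestine (log2 fold change 6.07, adjusted p = 0.0285). After LPS it was at 41.5, 254, 152 and 162 CPM against 18.4, 20.7, 77.5 and 41.6 CPM (1.94, adjusted p = 0.426). At 24 h the PBS colon ran from 81.5 to 1172 CPM and the PBS small intestine from 0.721 to 23.8 CPM (5.10, adjusted p = 0.0106). The LPS colon was then at 3820, 4970, 2880, 12800 and 6810 CPM and the LPS small intestine at 7680, 2240, 8440 and 7080 CPM (-0.02, 95% interval -1.86 to 1.81). All 9 LPS libraries lay above every PBS library, and the LPS groups of the 2 regions overlapped. The change in the gap was -4.12 ± 1.27 at 2 h (unadjusted p = 0.0049, adjusted p = 1) and -5.12 ± 1.28 at 24 h (unadjusted p = 0.000334, adjusted p = 0.378), so it did not pass at either time.

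Among inflammatory lists, cytokines had medians of -1.01 at 2 h (14 of 18 negative) and 0.41 at 24 h, where it was -0.32 without mice 3 and 8 in the colon. Chemokines had medians of -0.79 and 0.04, interferon-stimulated genes of -0.24 and -0.39, reactive glia genes of -0.04 and -0.27, and no member of these was called without a replicate block. MHC class I genes, which present peptides to T cells, were positive in 16 of 16 cases at 2 h (median 0.47, PBS 0.44) and in 12 of 16 at 24 h (0.29, PBS 0.54). B2m, their light chain, was at 6410, 6210, 5700 and 7750 CPM in the 2 h colon and at 2800, 4190, 5660 and 2980 CPM in the small intestine (adjusted p = 0.277). Cd14, the co-receptor that hands LPS to Tlr4, was at 121, 212, 283 and 164 CPM against 790, 624, 1320 and 778 CPM at 2 h (log2 fold change -2.17 ± 0.55, adjusted p = 0.147), and its PBS log2 fold change was -0.60. Lbp, which carries LPS to Cd14, was at 95.5, 643, 99, 472 and 294 CPM against 105, 35.5, 106 and 110 CPM at 24 h (1.85 ± 0.49, adjusted p = 0.0709). It passed after PBS (2.65, adjusted p = 0.00561) and in the knockouts given LPS (2.62, adjusted p = 0.023).

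**Figure D5:**
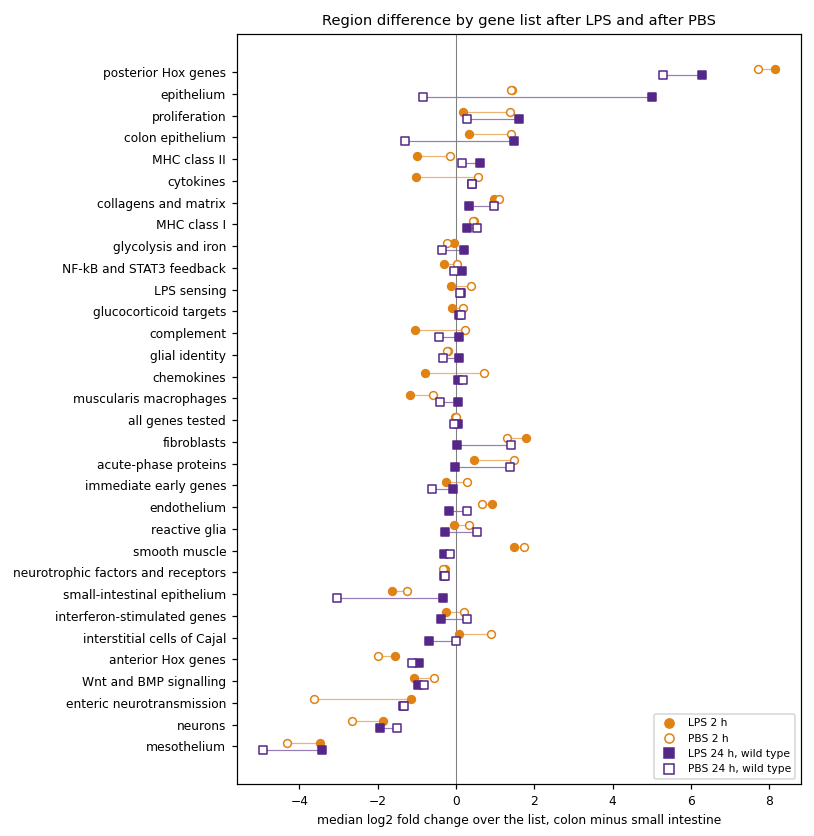
Median log2 fold change of colon over small intestine for each gene list with at least 5 tested members at both times, after LPS and after PBS. Posterior Hox genes lie far to the right and mesothelial, neuronal and neurotransmission genes to the left under both treatments, and the epithelial list at 24 h lies to the right after LPS (5.01) and to the left after PBS (-0.83).

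Glial identity genes had medians of -0.19 at 2 h and 0.07 at 24 h. Within them, Col28a1, a collagen of peripheral glia, was at 45.9, 85.2, 69 and 133 CPM in the 2 h colon and at 4.91, 11.9, 16.5 and 5.83 CPM in the small intestine (3.09 ± 0.60, adjusted p = 0.0704). It was at 18.6, 90.5, 16.7, 66.3 and 73.6 CPM against 0, 25.5, 12.4 and 16.6 CPM at 24 h (1.95 ± 0.91, adjusted p = 0.318). Ednrb, the endothelin receptor needed for colonisation of the gut by neural crest, was lower at 131, 139, 210 and 178 CPM against 363, 346, 586 and 394 CPM at 2 h (-1.36 ± 0.32, adjusted p = 0.13). Ngfr, the low-affinity neurotrophin receptor of glia and neural crest, was at 70.9, 43.3, 48.9 and 57.4 CPM against 169, 401, 147 and 155 CPM (-1.98 ± 0.48, adjusted p = 0.131) and was called after PBS (-2.77, adjusted p = 0.0304). Sox10, the transcription factor that defines enteric glia, was at 57.8, 633, 14.4, 186 and 173 CPM in the 24 h colon and at 88.8, 62.3, 109 and 107 CPM in the small intestine, with mice 3 and 8 low again.

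Wnt and bone morphogenetic protein genes had medians of -1.06 at 2 h (17 of 24 negative) and -0.97 at 24 h (19 of 28), with Rspo1 the 1 call, which did not hold under the block. Rspo2, a relative of Rspo1, was at 0 to 1.2 CPM against 1.28 to 7.95 CPM at 24 h (adjusted p = 0.228). Macrophage genes had medians of -1.18 at 2 h (18 of 20 negative, PBS -0.58) and 0.04 at 24 h (10 of 20 negative, PBS -0.40). Lyve1, a hyaluronan receptor of lymphatic vessels and vessel-associated macrophages, went against its list at 2 h. Without a block Lyve1 was not called at either time. It was at 81.6, 336, 359 and 634 CPM against 15.3, 0.201, 51.7 and 7.15 CPM at 2 h (adjusted p = 0.13) and at 454, 27.7, 196, 882 and 277 CPM against 96.5, 19.7, 38.3 and 13.5 CPM at 24 h (adjusted p = 0.141). With the mouse as a block it was called at 24 h (log2 fold change 3.62 ± 0.49, adjusted p = 0.0163). The chemokine Ccl21a, which lymphatic vessels make, was at 123, 731, 473 and 841 CPM against 5.59, 19.3, 106 and 0 CPM at 2 h (adjusted p = 0.223).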

How the data were processed

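RNA was isolated with the RNeasy Plus Micro Kit and libraries were made by Smart-seq2, per the labels' protocols, which sequences whole transcripts without molecular identifiers. The authors deposited raw read counts per gene in 1 table per experiment. Trim Galore 0.4.4, STAR 2.5.3, DESeq2 and GRCm38 are named in the submitters' processing notes without roles, and the counting tool and its use of strand are not given in the sources used here. From these counts, genes passing filterByExpr were fitted with edgeR 4.0.16 in R 4.3.3 (TMM scaling, glmQLFit and glmQLFTest, two-sided, Benjamini-Hochberg over all genes tested, adjusted p threshold 0.05), with all groups of an experiment in 1 fit (16 libraries at 2 h, 37 at 24 h). DESeq2 1.42.0 was an alternative. CPM (counts scaled to a common library size) used the TMM-scaled library sizes.

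Named genes were the called, non-overlapping genes at or above a mean log2 CPM of 3 with the largest fold changes (up to 12 per direction), up to 4 called members of each list, and a panel of 14. Other names were chosen after their values were seen. The members, lists and the division of mice at number 10 were chosen with earlier results of these data known. At 24 h the labels' mouse numbers pair the regions (mean correlation of deviations 0.184, from 0.0411 to 0.271, against -0.0418 for other pairs). A fit with the mouse as a block was therefore run as well, and 8 of the 39 calls held under it. Its adjusted p ("block") is given beside the called genes that are printed with a 24 h fold change. The 24 h values are otherwise from the fit without the block. The labels do not say that the 2 h libraries came from separate mice, so p-values there measure the spread between libraries. Replicates differed beyond counting noise (chi-square per gene 23.4 to 220 over 28 pairs). Some genes of the panel and lists, and the reporter's full name, are not reported here.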

Additional observations from a re-analysis of the deposited data

Results flagged for a closer look

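Within a group, a library was singled out where its gap to the nearest other library exceeded Dixon's 95% limit. Of 226 series of values examined, 17 were (7.52%), where chance alone gives about 1 in 20. The count includes 3 series (Trpc6, Hoxa10 and Myom1) in which the other libraries were all at 0, so that any single count passes, and it is no measure against that rate. In the 2 h colon, replicate 3 had a lymphocyte marker sum of 0.822 CPM (48.5 to 63.1 in the others) and Gpr37 at 4.93 CPM (0 to 0.223 in the others). Replicate 1 had an endothelial sum of 280 CPM (1130 to 1330 in the others), an interferon-stimulated sum of 4210 CPM (8380 to 9160) and Trpc6 at 0.223 CPM, a single count.

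In the 2 h small intestine, replicate 1 had an interferon-stimulated sum of 5310 CPM (8920 to 9680 in the others) and the chemokine Cxcl10 at 644 CPM (1480 to 1740). Replicate 2 had the chemokine Cxcl1 at 777 CPM (1570 to 1740) and Hoxa10 at 0.201 CPM, a single count. Replicate 3 had Socs3, the feedback inhibitor of STAT3, at 1280 CPM (806 to 862). Replicate 1 was thus the low library for interferon-stimulated genes in both regions, although replicate numbers at 2 h are not stated to mark a mouse.

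In the 24 h colon, mouse 16 had 13900 genes detected (12600 to 12700 in the others), mouse 3 had Diablo at 67.4 CPM (89.8 to 99.6), mouse 13 had Lrrtm1 at 1.09 CPM (0 to 0.12), and mouse 8 had Myom1 at 0.211 CPM, a single count. In the 24 h small intestine, mouse 16 had a neutrophil sum of 26 CPM (785 to 939 in the others). Mouse 8 had an endothelial sum of 518 CPM (1290 to 1520) and Lcn2 at 2240 CPM (7080 to 8440).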

How the results depend on the processing

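At 2 h the 8 calls became 6 with DESeq2's size factors in edgeR, 376 with DESeq2, 13 without a low-count filter, 5 with sex as a covariate, 0 with the 8 LPS libraries alone (886 unadjusted) and 0 to 19 with a library left out. A replicate block on the shared numbers, which the labels do not tie to a mouse (correlations -0.057 to 0.181), gave 29 calls, 4 of them among the 8. They included list members not called without it: Cnn1 and Tagln (smooth muscle), Dpt, Fbln1, Col1a1 and Col3a1 (fibroblasts, the last 2 also matrix), Fn1 (matrix), Stmn2 (neurons), Slpi (mesothelium), S1pr3 (reactive glia) and Col28a1 (glial identity), with adjusted p from 0.0249 to 0.0442. At 24 h the 39 calls became 31, 679, 32 and 36 under the first 4 changes, 0 with the 9 LPS libraries alone (735 unadjusted), 19 with the replicate block by mouse, 113 with the number range as a covariate, 23 for mice 11 and above, 352 for mice 10 and below, 5 without mouse 3, 106 without the colon of mice 3 and 8, and 7 to 153 with a library left out. Region by treatment gave 57 calls with DESeq2 at 2 h and 0 to 0 with a library left out. At 24 h it gave 126 with DESeq2, 2 with the replicate block (Try4 and Qpct), 1 with the contrast's groups alone, 7 for mice 11 and above and 0 to 1 with a library left out. Region by genotype gave 87 with DESeq2, 1 for mice 11 and above, 514 for mice 10 and below and 0 to 2 with a library left out. The causes were not tested. No called gene changed sign in any of these fits, while panel genes did in 20 of 196 fits at 2 h and 53 of 280 at 24 h. Depth limits genes near 0. The floor of 3 counts applies to the folds given as "at least" and to the lower-bound Hox medians. Other log2 fold changes against an empty group are fitted values, and their size is not exact.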
